A study of Mus musculus with 4 samples.

Results

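The proteasome genes of *in vitro* MDSCs (myeloid-derived suppressor cells) were followed here in RNA-seq libraries of cells differentiated with or without G-CSF. A gene was counted as a proteasome gene when its symbol had the form *Psm*, a letter from *a* to *g* and a number, which held for 48 of the 24346 genes in each table. *Psmc3ip*, which encodes a recombination factor, and *Psme2b*, a near copy of *Psme2*, have a longer symbol and were not counted.

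Bone marrow cells of female C57BL/6J mice (6 to 8 weeks old) were cultured for 4 days with 40 ng/ml GM-CSF, alone (Control, n = 2) or together with G-CSF at 5 ng/ml (G-CSF, n = 2). All 4 libraries therefore come from cells that received GM-CSF, and no sort before sequencing is described for them. The study describes the libraries of a group as biological replicates and does not say whether they came from separate mice, so p-values measure the spread between these libraries. The unit is FPKM, reads per gene divided by transcript length and by the size of the library.

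The proteasome is the protease that breaks down proteins tagged with ubiquitin. Its 20S core is a barrel of alpha and beta rings, in which 3 beta subunits cut the protein chain, and its 19S cap recognises, unfolds and feeds in the substrate; core and cap together make the 26S proteasome. Interferon induces a second set of cutting subunits, encoded by *Psmb8*, *Psmb9* and *Psmb10*, which replace those of *Psmb5*, *Psmb6* and *Psmb7* in the immunoproteasome, and the cap-like activator PA28 of *Psme1* and *Psme2*; these forms are known for making peptides for MHC class I.

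The libraries held an estimated 12450000 to 15700000 mapped reads, and 11488 genes passed the filter on low values. Across the 10557 genes at 1 FPKM or more in every library, Pearson's r on log2 FPKM was 0.995 between the Control replicates and 0.995 between the G-CSF replicates, and 0.986 to 0.988 between libraries of different groups. Genes are not independent replicates, so these values only describe how alike the libraries were. The extraction text of the labels speaks of liver, but *Alb*, *Apoa1* and *Ttr* were listed at 0 in every library, and *Itgam*, which encodes CD11b, stood at 395 to 520 FPKM.

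With G-CSF, 24 of the 31 standard 26S subunit genes with a *Psm* symbol rose by a small amount and the other 7 did not pass the test. Of the 5 interferon-inducible genes, 0 were called higher and 2 lower; the difference between these sets was not tested. Of the 47 proteasome genes tested, 26 were higher and 2 lower at an adjusted p under 0.05 (limma, Benjamini-Hochberg over all genes tested), and 19 did not pass. The same rule called 13.2% of all genes tested higher and 12% lower, against 55.3% of the proteasome genes higher. A log2 fold change above 0 was found in 40 of the 47, and in 50.7% of all genes tested. The median log2 fold change was 0.19 over the proteasome genes, a 1.14-fold difference, and 0.01 over all genes tested. In 37 of the 47 genes both G-CSF values lay above both Control values, as in 34.3% of all genes tested. None of the proteasome genes changed more than 2-fold, the threshold that 1.29% of all genes passed together with the adjusted p.

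These counts depend on how the spread of a gene was estimated. With the variance prior held equal at all expression levels, 0 proteasome genes were called higher and 0 lower (27 and 1 at an unadjusted p under 0.05, as were 18.4% and 17.6% of all genes), and the lowest adjusted p was 0.0538. With 1 library left out, between 13 genes (without Control replicate 1 or G-CSF replicate 1) and 15 genes (without G-CSF replicate 2) were called higher, and 14 without Control replicate 2. The share of all genes called then fell too: it was 2.98% higher and 3.77% lower with the equal prior, 7.9% and 6.65% without Control replicate 1, 8.38% and 8.6% without Control replicate 2, 6.62% and 6.92% without G-CSF replicate 1, and 7.77% and 8.78% without G-CSF replicate 2.

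**Figure D1:**
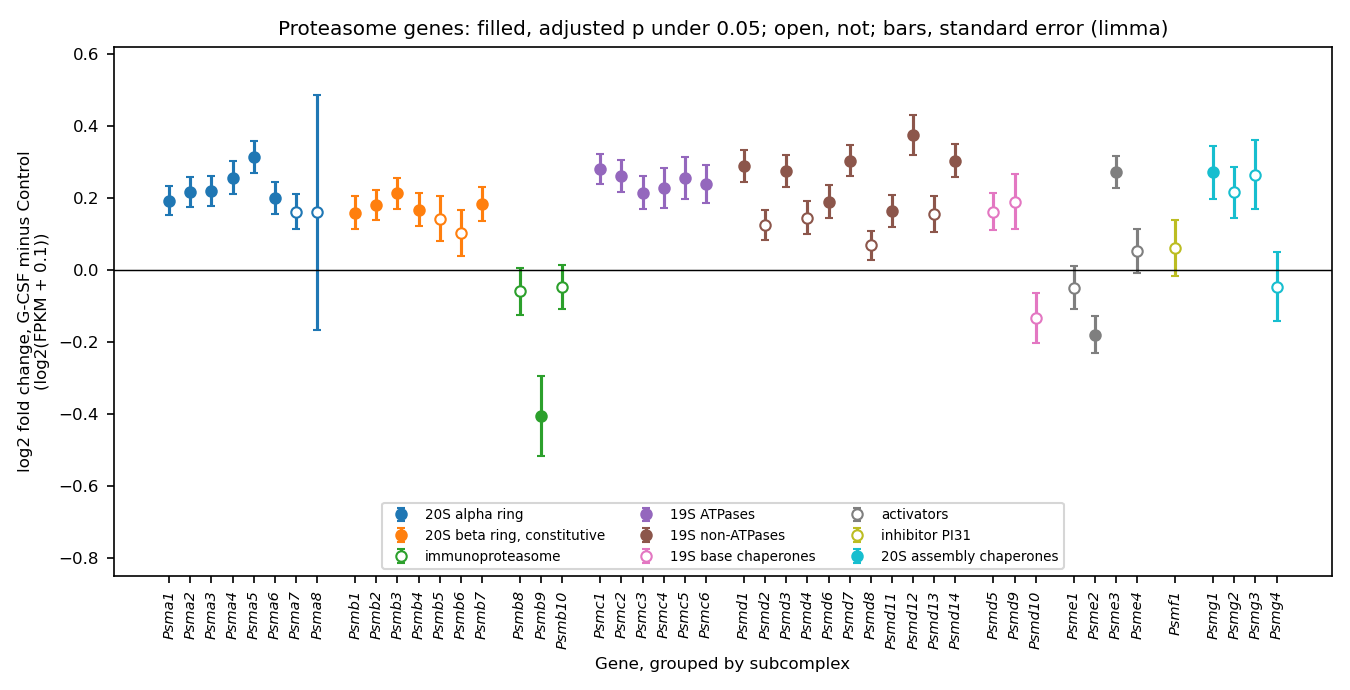
Log2 fold change between G-CSF and Control on the log2(FPKM + 0.1) scale for the 47 proteasome genes tested, grouped by subcomplex; bars are standard errors from limma, and filled points have an adjusted p under 0.05. The standard 20S and 19S subunits lie above 0, from 0.07 to 0.38. Of the 7 genes below 0, only *Psmb9* (-0.41) and *Psme2* (-0.18) are filled.

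The proteasome genes were abundant. The 31 standard subunits (*Psma1* to *Psma7*, *Psmb1* to *Psmb7*, *Psmc1* to *Psmc6* and 11 *Psmd* genes) stood between the 87.5th and 96.4th percentile of the level of all genes tested. The 14 standard core genes had Control means between 94.7 and 192 FPKM, and the 17 cap genes between 55.8 and 146 FPKM. All 48 genes together took 0.677% and 0.704% of the summed FPKM in the Control libraries, and 0.787% in each G-CSF library. *Psma8*, a germ cell form of an alpha subunit, stood at 0.954 and 0.569 FPKM in Control and 1.08 and 0.646 FPKM with G-CSF, with overlapping groups. *Psmb11*, the beta subunit of thymic epithelium, was the gene not tested, with 0.140 FPKM or less in each library.

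**Figure D2:**
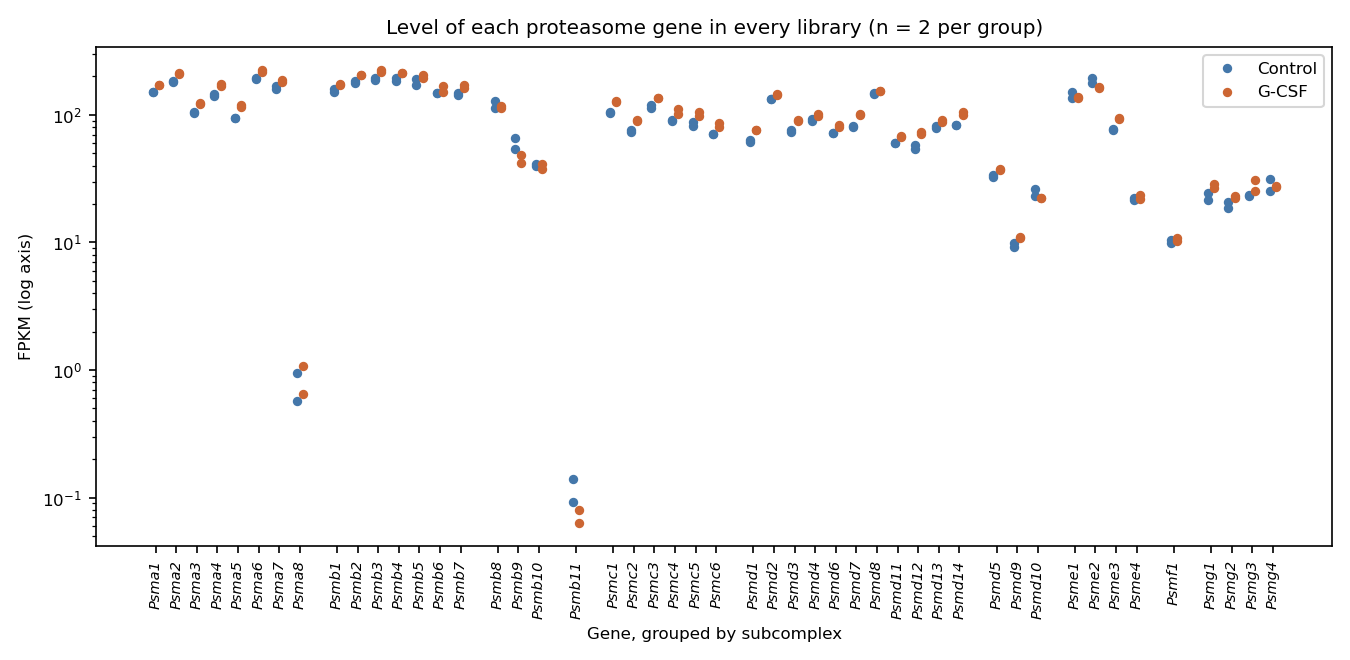
FPKM of each of the 48 proteasome genes in every library on a log axis, with Control in blue and G-CSF in orange (n = 2 each). Most subunit genes lie within a narrow band near 100 FPKM, and *Psma8* and *Psmb11* lie far below it.

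The alpha ring closes the core and binds the cap. Of its 8 genes, 6 rose, with a median log2 fold change of 0.21. *Psma5* stood at 95.1 and 94.3 FPKM in Control and 115.5 and 120 FPKM with G-CSF. Its G-CSF values lay well above both Control values (log2 fold change 0.31, standard error 0.0438, adjusted p = 0.00644). *Psma4* stood at 141 and 145.5 FPKM in Control and 175 and 167 FPKM with G-CSF. *Psma2* stood at 185 and 180 FPKM in Control and 213 and 211 FPKM with G-CSF. Neither gene overlapped between the groups, with log2 fold changes of 0.26 (adjusted p = 0.0122) and 0.22 (adjusted p = 0.0146). *Psma1*, *Psma3* and *Psma6* rose by 0.19, 0.22 and 0.20 on the log2 scale. *Psma7* had a log2 fold change of 0.16 and missed the threshold (adjusted p = 0.052).

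The beta ring holds the cutting sites. Of the 7 standard genes, 5 rose: *Psmb1* (0.16), *Psmb2* (0.18), *Psmb3* (0.21), *Psmb4* (0.17) and *Psmb7* (0.18). *Psmb7*, whose subunit has the trypsin-like activity, stood at 143 and 149 FPKM in Control and 162 and 170 FPKM with G-CSF (standard error 0.0473, adjusted p = 0.0339). *Psmb5*, whose subunit has the chymotrypsin-like activity, stood at 172 and 191 FPKM in Control and 195 and 206 FPKM with G-CSF. *Psmb6*, whose subunit cuts after acidic residues, stood at 148 and 149.6 FPKM in Control and 150.3 and 169.6 FPKM with G-CSF. In both, the groups did not overlap, but one pair of libraries lay close together. Neither passed the test, with log2 fold changes of 0.14 (standard error 0.0621, adjusted p = 0.138) for *Psmb5* and 0.10 (standard error 0.0629, adjusted p = 0.27) for *Psmb6*.

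The cap consists of a ring of ATPases that unfold the substrate and of non-ATPase subunits that bind and remove ubiquitin. All 6 ATPase genes rose, with log2 fold changes from 0.21 to 0.28 and a median of 0.25. *Psmc1* stood at 106 and 103 FPKM in Control and 128 and 127 FPKM with G-CSF (standard error 0.0421, adjusted p = 0.00764). *Psmc2* stood at 74.0 and 76.5 FPKM in Control and 89.3 and 91.1 FPKM with G-CSF (log2 fold change 0.26, standard error 0.0445, adjusted p = 0.0108). Of the 11 non-ATPase genes, 7 rose, and their median log2 fold change was 0.19.

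*Psmd12*, a scaffold subunit of the lid, had the largest log2 fold change of all proteasome genes tested, 0.38 (standard error 0.0551, adjusted p = 0.00737). It stood at 53.6 and 58.0 FPKM in Control and 73.5 and 71.2 FPKM with G-CSF. *Psmd14*, the deubiquitinase of the lid, stood at 82.8 and 83.5 FPKM in Control and 100.2 and 105 FPKM with G-CSF (log2 fold change 0.30, adjusted p = 0.00779). *Psmd7*, its partner, stood at 81.8 and 80.9 FPKM in Control and 99.2 and 102 FPKM with G-CSF (log2 fold change 0.30, adjusted p = 0.00674). The replicates of these genes lay closer to each other than to the other group. *Psmd1*, the largest scaffold of the base, stood at 63.1 and 61.6 FPKM in Control and 76.7 and 75.8 FPKM with G-CSF. *Psmd3*, a scaffold of the lid, stood at 75.8 and 73.3 FPKM in Control and 89.4 and 91.2 FPKM with G-CSF. Both rose, by 0.29 (adjusted p = 0.00806) and 0.28 (adjusted p = 0.00946) on the log2 scale. *Psmd6* and *Psmd11* rose by 0.19 and 0.16. *Psmd2* (0.13), *Psmd4* (0.15), *Psmd8* (0.07) and *Psmd13* (0.16) did not pass, with adjusted p-values from 0.0618 to 0.255.

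Taken as 31 genes, the standard subunits with a *Psm* symbol had 24 called higher and 0 called lower. In all 31 both G-CSF values lay above both Control values. The symbol rule leaves out the cap subunit genes *Adrm1* and *Shfm1*, whose groups overlapped. Neither passed, with log2 fold changes of 0.09 (limma, adjusted p = 0.372) and 0.05 (adjusted p = 0.566). The fold changes of the 31 genes ran from 1.05 to 1.30, with a median of 1.16. The middle 50% of their log2 fold changes spanned 0.096, against 0.344 for all genes tested. With upper-quartile scaling (11.8% of all genes higher and 13.3% lower), which lowered the median over all genes to -0.01, and with median-ratio scaling (12.7% and 12.5%), all 31 log2 fold changes stayed above 0. The sum over the 31 genes was 3695 and 3717 FPKM in Control and 4245 and 4275 FPKM with G-CSF. Of the 31 genes, 9 share at least 5% of the 75-base windows of their transcripts with other annotated genes, among them *Psma5* (39.8%), *Psmb5* (36.8%) and *Psmb3* (33.1%), so their values are less certain. Of the other 22, 17 were called higher, with a median log2 fold change of 0.20.

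Promoter windows of RefSeq (GRCm38.p6, 250 bases before to 50 bases after the start) were found for 40 of the 48 genes. The letters CCGGAAG, a site that ETS factors are known to bind, were looked for on both strands. They occurred in 9 of 14 cap genes (64.3%), in 1 of 11 standard core genes (9.09%), and in 20.96% of the 8885 genes tested that have a window. The stretches of 60 bases before the start of 4 cap genes that rose are shown for the place of these letters, given in capitals on either strand. Of the 9 cap genes with these letters, 6 rose, and *Psmd2*, *Psmd4* and *Psmd13* did not pass. Of the 5 without them, 4 rose. They lie on the plus strand at chr12:100110142-100110201 (*Psmc1*), chr5:21786687-21786746 (*Psmc2*) and chr11:107479468-107479527 (*Psmd12*), and on the minus strand at chr14:14120946-14121005 (*Psmd6*).
Psmc1: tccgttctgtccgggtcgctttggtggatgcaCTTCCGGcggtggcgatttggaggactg
Psmc2: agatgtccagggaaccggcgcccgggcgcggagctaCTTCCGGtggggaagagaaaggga
Psmd6: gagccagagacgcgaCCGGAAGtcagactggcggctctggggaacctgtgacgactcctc
Psmd12: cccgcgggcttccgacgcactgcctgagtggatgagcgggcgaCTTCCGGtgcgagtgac
The core of the antioxidant response element, through which NRF1 and NRF2 are known to act on proteasome genes, was looked for as TGACNNNGC on both strands. It occurred in 4 of 25 standard subunit genes (16.0%) and in 17.4% of the genes tested with a window. CCAAT occurred in 10 of these 25 genes and in 43.1% of the genes tested with a window. A match describes these letters only.

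Of the immunoproteasome genes, *Psmb8* was the highest in Control and *Psmb10* the lowest, and all 3 stood below their standard counterparts in every library. None rose with G-CSF, and *Psmb9* fell. *Psmb9*, whose subunit takes the place of that of *Psmb6*, stood at 66.4 and 54.1 FPKM in Control and 48.7 and 41.9 FPKM with G-CSF. The groups did not overlap, although the Control replicates differed by more than the gap between the groups (log2 fold change -0.41, standard error 0.111, adjusted p = 0.0405). Without Control replicate 1 the log2 fold change was -0.26 (adjusted p = 0.106), and without G-CSF replicate 2 it was -0.30 (adjusted p = 0.122). The log2 fold change was -0.55 without Control replicate 2 and -0.51 without G-CSF replicate 1. With no filter on low values, where 6.86% of all genes were called higher and 5.97% lower, the adjusted p was 0.0859. *Psmb8*, the counterpart of *Psmb5*, stood at 128 and 114 FPKM in Control and 118 and 114 FPKM with G-CSF. *Psmb10*, the counterpart of *Psmb7*, stood at 41.3 and 39.9 FPKM in Control and 37.6 and 41.1 FPKM with G-CSF. Their groups overlapped, with log2 fold changes of -0.06 (standard error 0.0652, adjusted p = 0.54) and -0.05 (standard error 0.0606, adjusted p = 0.603).

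**Figure D3:**
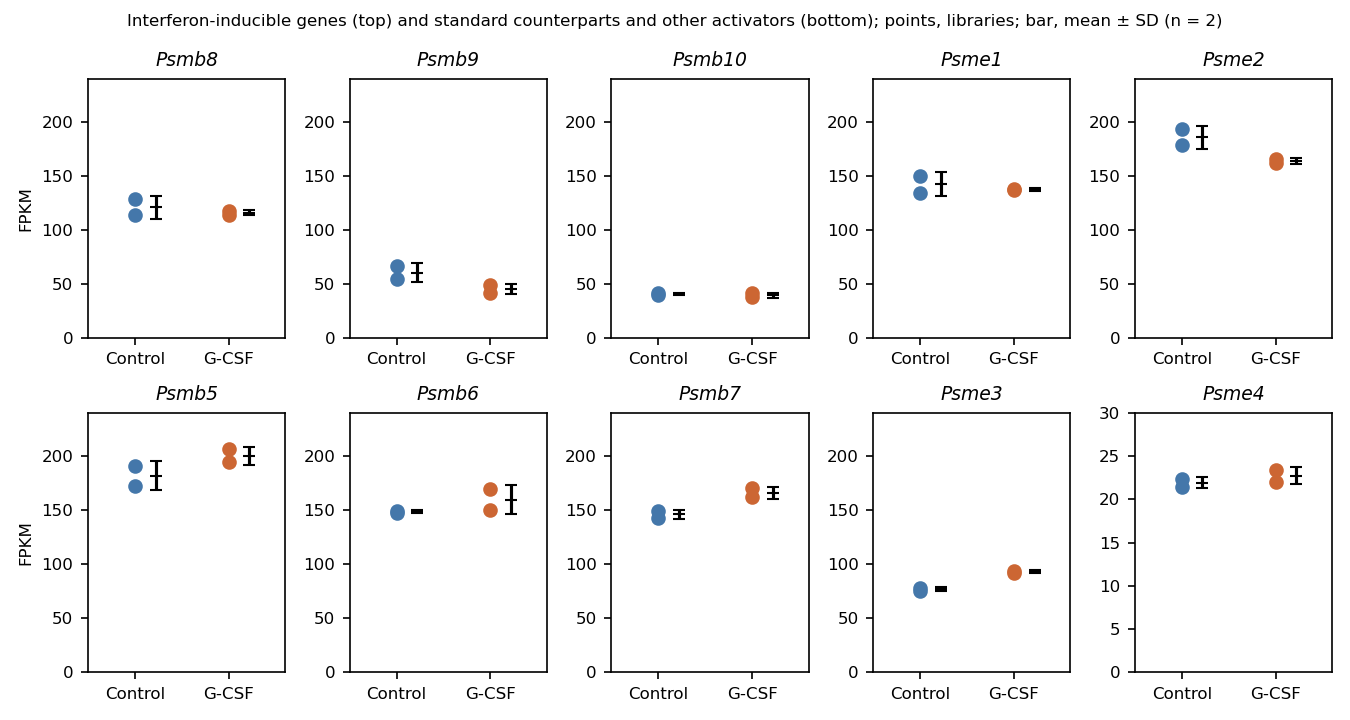
FPKM per library (points), with the mean and SD (n = 2) beside them, for the interferon-inducible genes *Psmb8*, *Psmb9*, *Psmb10*, *Psme1* and *Psme2* (top) and for *Psmb5*, *Psmb6*, *Psmb7*, *Psme3* and *Psme4* (bottom; *Psme4* has an axis of its own). *Psmb9* and *Psme2* lie lower and *Psmb5*, *Psmb6*, *Psmb7* and *Psme3* higher in both G-CSF libraries.

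*Psmb8* and *Psmb9* lie in the MHC region of chromosome 17 of GRCm38, *Psmb9* on the minus strand from 34181987 to 34187764 and *Psmb8* on the plus strand from 34197721 to 34201454. Next to *Psmb9*, in the opposite direction, starts *Tap1*, which encodes a subunit of the peptide transporter of the MHC class I pathway. These positions are from GENCODE, in which *Psmb9* reaches past the start of *Tap1*. Whether the counting used strand is not given in the sources used here, so reads in that overlap cannot be assigned with certainty. *Tap1* stood at 26.1 and 23.1 FPKM in Control and 20.97 and 18.3 FPKM with G-CSF. It fell as *Psmb9* did, with the order of the 4 libraries the same in both genes (log2 fold change -0.32, standard error 0.0907, adjusted p = 0.0438). In RefSeq *Psmb9* starts further in and the genes do not overlap at their starts. The 225 bases between the RefSeq starts, which lie within the GENCODE span of *Psmb9*, are shown because both RefSeq transcripts begin at their ends, on the plus strand at chr17:34187331-34187555 with CCAAT in capitals.
Psmb9-Tap1 interval: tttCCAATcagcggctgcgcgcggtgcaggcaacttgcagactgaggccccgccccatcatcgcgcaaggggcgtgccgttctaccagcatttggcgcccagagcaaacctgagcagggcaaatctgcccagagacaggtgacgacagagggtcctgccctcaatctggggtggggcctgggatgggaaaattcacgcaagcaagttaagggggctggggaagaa
CCAAT occurred in 1 of the 5 inducible genes, *Psmb9*. The core of the interferon-stimulated response element, the letters GAAA repeated after any 2 bases, occurred in 1 of the 5, *Psme1*, and in 3.82% of the genes tested with a window.

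The ratio of inducible to standard cutting subunit stood lower in both G-CSF libraries than in either Control library for *Psmb9* and *Psmb10*, a difference that the exact test could not resolve with so few libraries. The FPKM ratio of *Psmb9* to *Psmb6* was 0.449 and 0.362 in the Control libraries, against 0.324 and 0.247 in the G-CSF libraries. That of *Psmb10* to *Psmb7* was 0.288 and 0.268 in the Control libraries, against 0.232 and 0.242 in the G-CSF libraries. The ratio of *Psmb8* to *Psmb5* was 0.745 and 0.594 in the Control libraries, against 0.605 and 0.553 in the G-CSF libraries, and its groups overlapped. On the log2 scale the ratios differed by -0.51, -0.23 and -0.20. The exact permutation test (two-sided) gave p = 0.333, 0.333 and 0.667, and 0.5, 0.5 and 0.667 after adjustment over the 3 ratios. With 2 libraries against 2 it cannot go below 0.333, so it cannot pass 0.05. Together the inducible genes made up 33.8% and 29.7% of the FPKM of the 6 cutting subunits in the Control libraries, against 28.7% and 26.5% in the G-CSF libraries.

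**Figure D4:**
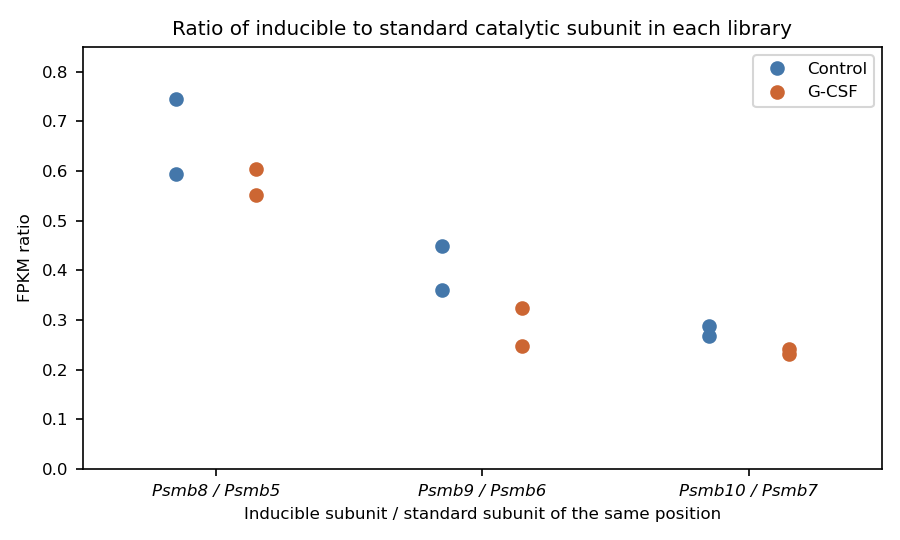
FPKM ratio of each inducible cutting subunit to the standard subunit whose place it takes, in every library, with Control in blue and G-CSF in orange. For *Psmb9* to *Psmb6* the G-CSF libraries (0.324 and 0.247) lie below the Control libraries (0.449 and 0.362).

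Of the 4 activator genes, 1 rose, 1 fell and 2 did not pass, where 13.2% of all genes tested were called higher and 12% lower. *Psme1* and *Psme2* encode the subunits of interferon-inducible PA28, and *Psme3* encodes the nuclear PA28 gamma. *Psme2*, on chromosome 14 of GRCm38 (55587441 to 55591113), stood at 193 and 178 FPKM in Control and 166 and 162 FPKM with G-CSF. Both G-CSF values lay below both Control values (log2 fold change -0.18, standard error 0.0521, adjusted p = 0.0482). Of its windows, 46.9% are shared with *Psme2b*, which fell from 7.16 and 7.99 FPKM to 4.61 and 5.17 FPKM (log2 fold change -0.62, standard error 0.107, adjusted p = 0.0111), so their reads cannot be fully told apart. With a library left out in turn, *Psme2* passed only without Control replicate 2 (adjusted p = 0.0347), and its adjusted p was 0.0826 with no filter. *Psme1*, its neighbour on chromosome 14 (55578123 to 55581529), stood at 150 and 134 FPKM in Control and 138 and 137 FPKM with G-CSF, with overlapping groups (log2 fold change -0.05, standard error 0.0596, adjusted p = 0.581).

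*Psme3* rose, from 75.7 and 78.1 FPKM in Control to 92.0 and 93.9 FPKM with G-CSF (log2 fold change 0.27, standard error 0.0443, adjusted p = 0.0095). *Psme4*, which encodes the activator PA200, stood at 21.5 and 22.4 FPKM in Control and 23.5 and 22.1 FPKM with G-CSF. *Psmf1*, which encodes the inhibitor PI31, stood at 10.4 and 9.84 FPKM in Control and 10.2 and 10.9 FPKM with G-CSF. The groups of both genes overlapped, with log2 fold changes of 0.05 (adjusted p = 0.557) and 0.06 (adjusted p = 0.599).

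Of the 7 chaperones that assemble the particle, 1 passed the test, near the 13.2% of all genes tested that were called higher. *Psmg1*, one of the 4 genes for assembly of the core, rose from 24.3 and 21.7 FPKM to 28.6 and 26.8 FPKM (log2 fold change 0.27, standard error 0.0738, adjusted p = 0.0401). *Psmg2* (0.22, adjusted p = 0.0679) and *Psmg3* (0.27, adjusted p = 0.089) did not pass, and *Psmg4* had a log2 fold change of -0.05 with overlapping groups. None of the 3 chaperones of the cap base passed (limma; 2 had an unadjusted p under 0.05). *Psmd10*, the chaperone gankyrin, stood at 23.2 and 26.02 FPKM in Control and 22.4 and 22.4 FPKM with G-CSF, the only one of the 3 with G-CSF values below Control (log2 fold change -0.13, adjusted p = 0.206). *Psmd5* and *Psmd9* had log2 fold changes of 0.16 and 0.19 (adjusted p = 0.0594 and 0.116).

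Among proteins that bind the proteasome or carry ubiquitin to it, 17 genes were tested in a list that also held *Psme2b*, *Adrm1* and *Shfm1*. Of these, 5 were higher, and *Psme2b* was the 1 called lower, with a median log2 fold change of 0.12. *Uchl5*, a deubiquitinase of the cap, rose from 32.5 and 32.1 FPKM to 43.5 and 43.4 FPKM. On the log2 scale this difference of 0.43 (standard error 0.0477, adjusted p = 0.00428) exceeded those of all *Psm* genes tested. *Rad23b*, a shuttle for ubiquitinated proteins, and *Txnl1*, a thioredoxin-like protein bound to the cap, rose by 0.26 (adjusted p = 0.0111) and 0.30 (adjusted p = 0.0153) on the log2 scale. *Pomp*, the maturation factor of the core, stood at 172 and 181 FPKM in Control and 179 and 193 FPKM with G-CSF and did not pass (adjusted p = 0.329). Among 6 genes for ubiquitin and its activating enzymes, *Uba1* (0.19, adjusted p = 0.0304) and *Rps27a*, which encodes ubiquitin fused to a ribosomal protein (0.21, adjusted p = 0.0233), rose. The stress-inducible ubiquitin gene *Ubb* stood at 398 and 394 FPKM in Control and 390 and 416 FPKM with G-CSF.

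NRF1, encoded by *Nfe2l1*, is the factor known to raise proteasome genes when the protease is short. In the list of its pathway, 0 of 13 genes rose and 3 fell (limma; at an unadjusted p under 0.05, 2 were above and 5 below 0, as were 20.6% and 19.3% of all genes tested). *Nfe2l1* stood at 49.5 and 48.7 FPKM in Control and 49.3 and 47.5 FPKM with G-CSF (log2 fold change -0.02, standard error 0.0482, adjusted p = 0.783). *Nfe2l2*, which encodes NRF2, fell by 0.20 on the log2 scale (adjusted p = 0.0267), *Ngly1*, the glycanase that acts on NRF1, by 0.41 (adjusted p = 0.0119), and the small MAF gene *Maff* by 0.54 (adjusted p = 0.0107). *Nploc4*, a cofactor of the ATPase that extracts ubiquitinated proteins, had a log2 fold change of 0.17 and did not pass (adjusted p = 0.0504). These RNA levels do not measure the activity of NRF1, and its part in the rise of the standard subunits was not tested.

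In the list of MHC class I peptide loading, 3 of 12 genes rose and 4 fell, where 13.2% and 12% of all genes tested did. *H2-K1*, another class I heavy chain (-0.11, adjusted p = 0.25), had overlapping groups. Neither it nor *Tap2* (-0.12, adjusted p = 0.178) passed. Those that fell were *H2-D1*, a class I heavy chain (-0.39, adjusted p = 0.00526), *Tap1*, *B2m*, the light chain (-0.25, adjusted p = 0.0186), and *Tapbp*, which encodes tapasin (-0.17, adjusted p = 0.0356). Those that rose, *Calr* (0.27, adjusted p = 0.0119), *Canx* (0.19, adjusted p = 0.0195) and *Pdia3* (0.19, adjusted p = 0.0233), encode general chaperones and an isomerase of the endoplasmic reticulum. Among 11 factors and receptors of interferon signalling, 0 rose and 3 fell, where 13.2% and 12% of all genes tested did. At an unadjusted p under 0.05 (limma), 0 were above and 4 below 0, as were 20.6% and 19.3% of all genes tested. The 3 were *Jak2* (-0.38, adjusted p = 0.0085), *Irf2* (-0.23, adjusted p = 0.0234) and *Jak1* (-0.22, adjusted p = 0.035). All 11 had a log2 fold change below 0, as had 5665 of the 11488 genes tested, and their median was -0.16. *Irf1* stood at 31.1 and 29.3 FPKM in Control and 29.5 and 27.0 FPKM with G-CSF, with overlapping groups.

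Markers of several cell types were lower with G-CSF, as were *Psmb9* and *Psme2*. Of all genes tested, 12% were called lower. Of 6 dendritic cell markers, 4 fell, and their sum was 2591 and 2222 FPKM in Control and 1456 and 1178 FPKM with G-CSF, most of it *Cd74* and *H2-Ab1*. Of 6 macrophage markers, 4 fell, and their sum was 108 and 111 FPKM in Control and 84.4 and 89.3 FPKM with G-CSF. None of these 12 markers was at 0 in all libraries. Of the 7 myeloid markers in the tables, *Itgam*, *Csf3r*, *S100a9* and *Cd33* also fell. *Ly6g* was looked for too but had no values. Of 3 mast cell and basophil markers, 2 fell, and their sum was 77.2 and 76.9 FPKM in Control and 50.2 and 54.2 FPKM with G-CSF. T cell markers summed to 4.03 FPKM or less and B cell markers to 2.12 FPKM or less in each library, with 1 marker of each called lower. Over the 4 libraries the sums of the dendritic cell, myeloid, T cell and B cell markers all had the order of *Psmb9*. Those of the macrophage and of the mast cell and basophil markers did not. Most of the myeloid sum was *S100a8* and *S100a9*. In 32.5% of all genes tested both G-CSF values lay below both Control values, so a shared order is common. By flow cytometry of cultures made this way, the paper reports no effect of G-CSF on the percentages of dendritic cells or macrophages. It reports a larger proportion of monocytic MDSCs and a smaller one of polymorphonuclear MDSCs. The part of these cells in the fall of *Psmb9* and *Psme2* was not tested. From bulk RNA alone, fewer cells of a type cannot be told apart from less RNA per cell.

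Other assemblies of the cytosol gave a scale for the rise of the standard subunits. All 8 genes of CCT, the ring-shaped chaperonin that folds actin and tubulin, rose, with a median log2 fold change of 0.36, and *Cct7* rose from 92.4 and 91.0 FPKM to 125 and 126 FPKM. Of 9 genes of the COP9 signalosome, whose subunits are related to those of the proteasome lid, 4 rose, with a median log2 fold change of 0.19. The differences between these assemblies and the proteasome were not tested.

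**Figure D5:**
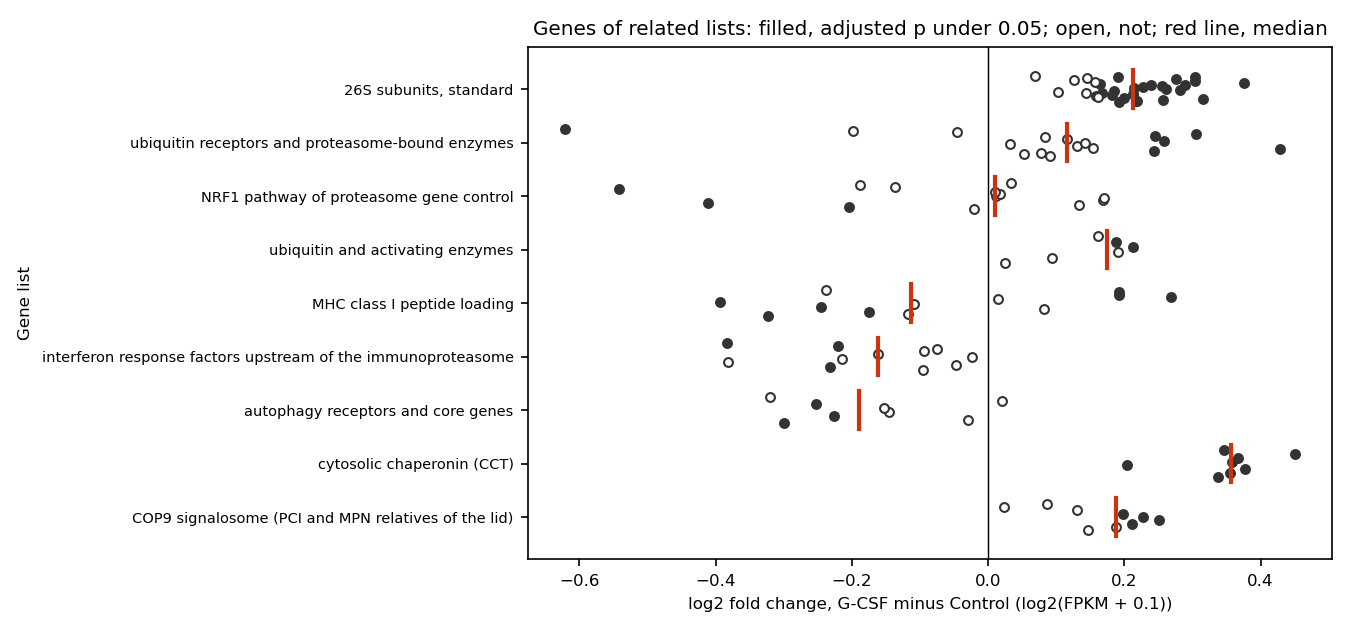
Log2 fold change between G-CSF and Control for the 31 standard 26S subunits and the genes of 8 related lists; filled points have an adjusted p under 0.05, and red lines are medians. The median of the standard subunits is 0.21, that of CCT 0.36, that of the interferon factors -0.16 and that of the NRF1 pathway 0.01.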

How the data were processed

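RNA-seq was made from 2 Control and 2 G-CSF cultures with stranded mRNA libraries and 75-base single-end reads. The authors deposited 1 table of FPKM per library. The submitters' processing notes name TopHat2 2.0.13, Bowtie2 2.2.3, SAMtools 0.1.19, Cufflinks 2.2.1 and mm10; the annotation is not given in the sources used here. The unit was inferred from Cufflinks and the values. FPKM is scaled to the library total, so a change of very abundant genes shifts all others; rescaled values stand in the closing section.

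Depth was estimated from the steps of low values over genes of 600 to 4000 bases holding 8 reads or fewer (64.7% to 69.98% of these values lay within 0.05 of a whole read). Transcript lengths and positions came from GENCODE M21 (GRCm38, the build mm10 is made from), in which 23976 of 24346 genes were found. A gene was tested if 2 libraries had 10 or more estimated reads, the 4 libraries summed to 15 or more, and its transcript was over 200 bases. The model was limma 3.58.1 in R 4.3.3 (lmFit, eBayes with trend, two-sided) on log2(FPKM + 0.1), without a replicate block, and adjusted p-values are Benjamini-Hochberg over all 11488 genes. In simulated libraries with 200 changed genes of 11488, 83% were recovered at a log2 fold change of 1, 23.5% at 0.4 and 0% at 0.2. The changed genes were drawn from all levels, whereas 2901 genes were called in the data. These shares therefore do not carry over to the abundant proteasome genes.

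The genes, gene lists and motifs were chosen with earlier results of these data known; 1 gene of the interferon list and 1 motif are not reported here. Named in full were the inducible genes, their counterparts, the activators and *Psmf1*, and the 10 other members with the smallest p. So were at most 4 genes a list with the smallest p. *Tap1*, *Tap2*, *H2-K1*, *Tapbp*, *Pdia3*, *Ubb*, *Pomp*, *Adrm1*, *Shfm1*, *Nfe2l1*, *Irf1* and *Psmc3ip* were named besides, after their values were seen. Alternatives were other pseudocounts, filters and scalings, no variance trend, a replicate block, and leaving out each library. Figures and the permutation test used python 3.11.15, scipy 1.17.1 and matplotlib 3.10.9.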

Additional observations from a re-analysis of the deposited data

How the results depend on the processing

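The medians of the proteasome genes stayed between 0.17 and 0.19 under every alternative, and all 31 standard subunits kept a log2 fold change above 0. Counts moved more. Without a variance trend, 0 proteasome genes were higher and 0 lower, and 775 of all genes were called in place of 2901; with no filter on low values, 20 were higher and 0 lower (34 and 2 at an unadjusted p under 0.05). With a library left out, 13 to 15 were higher, 0 to 2 lower (1 to 3 at an unadjusted p under 0.05) and 1556 to 1951 of all genes called; the lone library is then assumed to vary like the others. Of the genes not called, the log2 fold change of *Psmb8* ranged from -0.15 to 0.030 and that of *Psme1* from -0.13 to 0.030, both above 0 without Control replicate 1, and that of *Psmb10* from -0.11 to 0.019, above 0 without G-CSF replicate 1. With a library left out, the log2 difference of the ratio to the standard subunit ranged from -0.70 to -0.31 for *Psmb9*, -0.29 to -0.18 for *Psmb10* and -0.37 to -0.04 for *Psmb8*. Upper-quartile scaling left 22 genes higher and median-ratio scaling 25. Libraries share only a replicate number (correlation of deviations 0.296 across genes); with it as a replicate block, 34 proteasome genes were higher and 2 lower, among them all 28 called without it; *Psmb5* was among the 8 gained (adjusted p = 0.0301), and 3973 of all genes were called. At this depth the least abundant member tested, *Psma8*, rested on 6.59 to 10.9 estimated reads a library.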

Other observations

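Autophagy, the other main route of protein breakdown, was followed with 8 genes. None rose and 3 fell with G-CSF (limma; at an unadjusted p under 0.05, 0 were above and 6 below 0, as were 20.6% and 19.3% of all genes tested): *Map1lc3b* (-0.23, adjusted p = 0.0135), *Atg7* (-0.25, adjusted p = 0.018) and *Sqstm1*, which encodes the receptor p62 (-0.30, adjusted p = 0.0258). *Sqstm1* stood at 174 and 161 FPKM in Control and 128 and 144 FPKM with G-CSF, and the groups did not overlap. *Atg5*, needed to form the autophagosome, had a log2 fold change of -0.15 and did not pass (adjusted p = 0.0667). The median log2 fold change of the 8 genes was -0.19, against 0.21 for the standard proteasome subunits. This difference was not tested, and RNA levels do not measure protein breakdown. *Psmc3ip*, whose symbol begins like those of the ATPases, stood at 9.47 and 9.13 FPKM in Control and 12.4 and 10.6 FPKM with G-CSF and did not pass (adjusted p = 0.0597).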
